A study of Mus musculus with 11 samples.

Results

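The genes described are Tbx2, Tbx3, Tbx4, Tbx5, Tbx15, Tbx18, Pitx1, Alx4 and En1, a set of 9 transcription factor genes that give limb and trunk mesenchyme its positional identity. They were taken by gene name from a deposited table of 53924 named gene lines, and all 9 were present and passed the filter on low counts, as did 16990 lines in all. The cells were mouse embryonic fibroblasts, connective tissue cells cultured from embryos of day 13.5 and collected at passage 2, and gene expression was measured by RNA-seq. The wild type (WT) gave 3 libraries, as did the genotypes Trex1-/- and Trex1 D18N, and Trex1 p212fs gave 2; no treatment is named. The Trex1 protein is an exonuclease that clears cytosolic DNA. Trex1-/- is the knockout, D18N changes an active-site residue, and p212fs is by its name a frameshift. The growth protocol names both primary and spontaneously immortalized fibroblasts without saying which library was which, and neither the strain nor the body parts used for culture are given in the sources used here. Separate embryos or cultures within a genotype are not stated. Every p-value thus rests on a spread among libraries that may be technical in part, and wholly so within WT and p212fs.

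T-box proteins bind DNA through a shared domain, the T-box, and act as activators or repressors of transcription. In the vertebrate limb Tbx5 marks the forelimb bud and Tbx4 the hindlimb bud, where the homeodomain factor Pitx1 lies upstream of Tbx4. Tbx2 and Tbx3 are mostly repressors with roles at the limb margins, Tbx15 and Tbx18 mark trunk, skin and shoulder girdle mesenchyme, Alx4 acts on the anterior limb and body wall, and En1 marks ventral limb ectoderm and a lineage of dorsal skin fibroblasts. Cultured fibroblasts are known to keep part of the positional expression of the tissue they were taken from.

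Library totals ran from 16059426 to 21748034 counts. The Trex1 line held 0 counts in every one of the 11 libraries, which leaves the genotype labels unchecked by it. Xist, transcribed from the inactive X chromosome, was at 408 to 1040 CPM (counts per 1000000) in 5 libraries, the 3 WT, Trex1-/- replicate 2 and D18N replicate 1, and at most 0.184 CPM in the other 6, so that embryo sex and genotype were partly confounded and fully so between p212fs and WT. Trex1-/- and D18N each held libraries of both Xist levels, and so cells of more than 1 embryo. Summed over 10 fibroblast markers, the level was 51500 to 57000 CPM in WT, 53200 to 62400 in Trex1-/-, 69300 to 81400 in D18N and 25900 to 29900 in p212fs, with no marker at 0.

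Tbx4 and Tbx18 are shown by the sequence before a RefSeq start because they had the largest changes among the 9 genes in p212fs and in D18N. The RefSeq table (GRCm38.p6) matched 3 of the 9, Tbx4, Tbx18 and En1. The lines give the 250 bases before the RefSeq start, 5′ to 3′ on the gene's strand, from chr11:85896515-85896764 (plus strand) for Tbx4 and chr9:87731261-87731510 (minus strand) for Tbx18. The Tbx4 window lies inside the gene as given by GENCODE (85886422 to 85916097), so it precedes a start downstream of the GENCODE start. The Tbx18 window adjoins its GENCODE gene, which ends at 87731260. Capitals mark matches, on either strand, to 4 searched motifs, the T-box core GGTGTGA, the E-box CAGCTG, the TATA motif TATAAA and the GC box GGGCGG, which do not overlap here.
Tbx4: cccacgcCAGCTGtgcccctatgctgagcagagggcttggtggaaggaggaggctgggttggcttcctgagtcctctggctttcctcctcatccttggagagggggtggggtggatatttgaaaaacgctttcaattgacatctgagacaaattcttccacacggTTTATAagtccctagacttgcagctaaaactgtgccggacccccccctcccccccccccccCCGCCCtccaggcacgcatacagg
Tbx18: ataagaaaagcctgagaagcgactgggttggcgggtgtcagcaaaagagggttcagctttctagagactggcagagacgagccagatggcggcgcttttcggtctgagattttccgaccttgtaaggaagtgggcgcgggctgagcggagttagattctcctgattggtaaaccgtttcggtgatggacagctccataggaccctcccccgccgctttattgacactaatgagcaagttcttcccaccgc

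The Tbx4 window held 1 E-box, 1 TATA motif and 1 GC box, found in 13.0%, 12.4% and 32.7% of all 32851 promoter windows of that length, and the Tbx18 window held none of the 4. The T-box core was in neither, and in 3.33% of all windows. The CpG content, observed over expected, was 0.285 for Tbx4 and 0.836 for Tbx18, against a median of 0.373 over all windows, so the 2 windows lay on either side of it. A match of letters is a description of this window, not a binding site.

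The 9 genes span a wide range of levels. On the scale of CPM per kilobase of exon, averaged over the 11 libraries, Tbx15 was highest at 25.5, followed by En1 at 11.4, Tbx2 at 5.43, Tbx3 at 5.16, Pitx1 at 4.99, Tbx18 at 2.72, Alx4 at 2.52, Tbx4 at 2.11 and Tbx5 at 1.31. Tbx15 exceeded 87.0% of the genes tested in mean CPM and Tbx5 exceeded 35.6%. Across the 11 libraries the highest CPM was 22.3 times the lowest for Tbx4, and between 1.92 times (Tbx15) and 3.69 times (Alx4) for the other 8 genes. In bulk RNA, fewer cells of a type and less RNA per cell cannot be told apart.

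**Figure D1:**
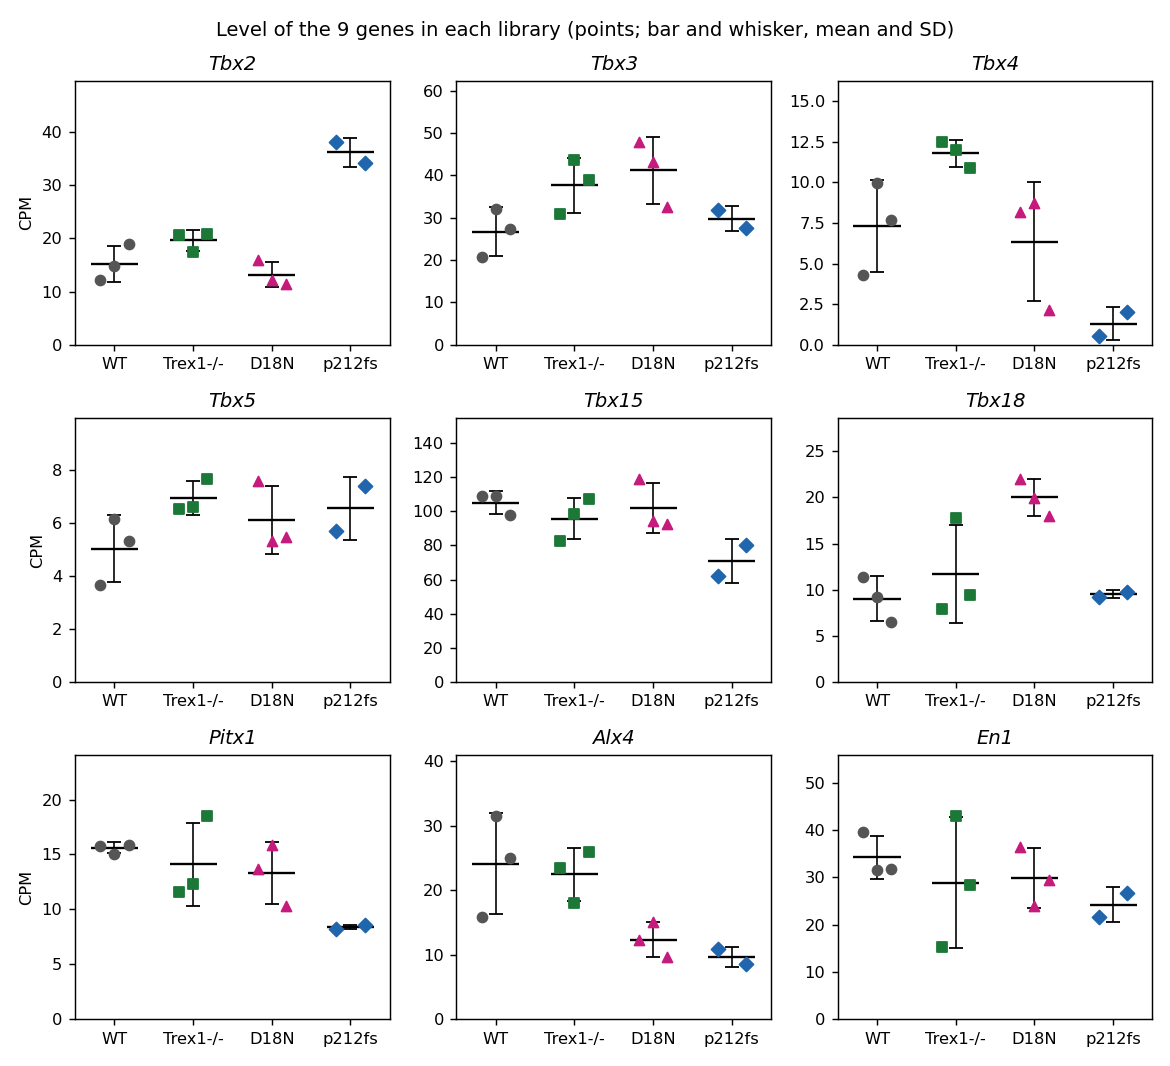
CPM (vertical axis, from 0) of each of the 9 genes in each library, by genotype; points are libraries, the bar is the mean and the whisker 1 SD (n = 3, and n = 2 for p212fs). Tbx2 was highest and Tbx4, Pitx1 and Tbx15 lowest in both p212fs libraries, and Tbx18 was highest in the 3 D18N libraries.

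The comparison of p212fs with WT asks what the frameshift allele goes with in these cells. The hindlimb genes Tbx4 and Pitx1 fell, as did Tbx15 and Alx4, while Tbx2 rose. By edgeR's quasi-likelihood test with Benjamini-Hochberg adjustment over all genes tested, 5 of the 9 genes passed the threshold of 0.05, 1 higher and 4 lower, where 17.1% of all genes passed, 8.13% higher and 8.95% lower. Their median log2 fold change was -0.57, against -0.02 over all genes tested. All 5 also passed in DESeq2.

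Tbx4, the hindlimb T-box gene, had 4.32, 9.96 and 7.70 CPM in WT replicates 1, 2 and 3 and 0.56 and 2.00 CPM in p212fs replicates 1 and 2. These were 10 and 37 counts, with exact 95% Poisson intervals of 0.269 to 1.03 and 1.41 to 2.76 CPM, which cover counting error only. Both p212fs libraries lay below the other 9, the nearest being D18N replicate 3 at 2.12 CPM. The mean was 1.28 ± 1.02 CPM (SD, n = 2) against 7.33 ± 2.84 (n = 3), a log2 fold change of -2.56 ± 0.66 (approximate standard error; edgeR adjusted p = 0.025). Without WT replicate 2 or 3, or either p212fs library, edgeR's adjusted p rose above the threshold, as it did with the Xist pattern as a term and with no filter, the highest being 0.18.

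Pitx1, the homeodomain factor of hindlimb identity, had 15.8, 15 and 15.9 CPM in WT and 8.24 and 8.54 CPM in p212fs. The WT values differed by little, and both p212fs libraries lay below every library of the other genotypes. The log2 fold change was -0.95 ± 0.24 (edgeR adjusted p = 0.0227). Its call was lost without WT replicate 3 or either p212fs library, and with the Xist pattern as a term.

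Tbx5, the forelimb T-box gene, stood at 3.65, 6.16 and 5.31 CPM in WT and 5.71 and 7.41 CPM in p212fs, so that the groups overlapped. Its log2 difference was 0.33 ± 0.26 (edgeR adjusted p = 0.4), with an approximate 95% interval from -0.18 to 0.83. Within a library, where scaling plays no part, Tbx4 counts were 1.18, 1.62 and 1.45 times Tbx5 counts in WT, 1.92, 1.82 and 1.42 times in Trex1-/-, and 1.07, 1.65 and 0.388 times in D18N. In p212fs they were 0.098 and 0.27 times. The p212fs libraries and D18N replicate 3 were thus those with fewer Tbx4 than Tbx5 counts.

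**Figure D2:**
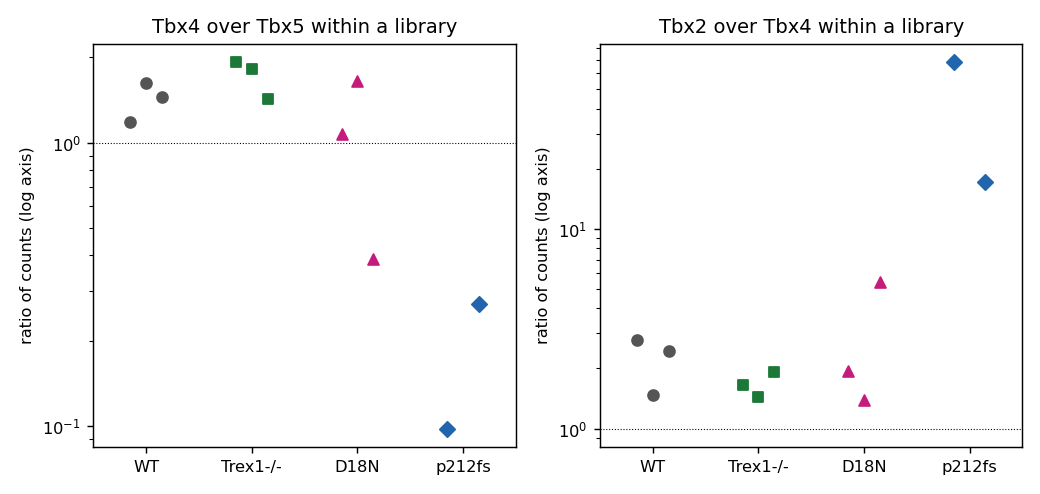
Ratio of counts (log axis) of Tbx4 to Tbx5 and of Tbx2 to Tbx4 within each library, by genotype; each point is a library and the dotted line is a ratio of 1. In p212fs the first ratio was 0.098 and 0.27 and the second 68.2 and 17.1.

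Tbx2, a repressor gene 44.5 kb upstream of Tbx4 on chromosome 11 (GRCm38), moved the opposite way. It had 12.1, 14.8 and 18.9 CPM in WT, 20.7, 17.4 and 20.9 in Trex1-/-, 15.9, 12.1 and 11.5 in D18N, and 38.2 and 34.3 in p212fs. Both p212fs libraries lay well above the other 9. Against WT the log2 fold change was 1.19 ± 0.19 (edgeR adjusted p = 0.00314), a fold of 2.28, and the call stood in all 11 alternatives run for it. Tbx2 counts were 68.2 and 17.1 times Tbx4 counts in the p212fs libraries and 1.39 to 5.45 times in the other 9.

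The second neighbouring pair, Tbx3 and Tbx5, 147.9 kb apart on chromosome 5, showed no such split in p212fs. Tbx3, a repressor close to Tbx2 in sequence, had 31.8 and 27.6 CPM in p212fs against 20.6, 32.1 and 27.3 in WT, and the groups overlapped. The log2 difference was 0.10 ± 0.22 (edgeR adjusted p = 0.772). Whether the pairs behaved differently was not tested.

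Tbx15, a gene of trunk mesenchyme and the most abundant of the 9, had 109, 109 and 97.6 CPM in WT and 61.9 and 80.0 in p212fs, which were the lowest values of the series. Its log2 fold change was -0.63 ± 0.17 (edgeR adjusted p = 0.0266). Alx4, a paired-type homeodomain gene, had 15.9, 31.5 and 25 CPM in WT and 10.8 and 8.54 in p212fs, a log2 fold change of -1.37 ± 0.28 (edgeR adjusted p = 0.00943). Both p212fs libraries lay below WT for both genes, and both calls were lost without either p212fs library. The Tbx15 call also ended without WT replicate 2 or 3 and with the Xist pattern as a term.

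En1 had 39.6, 31.6 and 31.8 CPM in WT and 21.6 and 26.8 in p212fs, and Tbx18, a T-box gene of somite, heart and kidney mesenchyme, had 11.4, 9.22 and 6.45 against 9.24 and 9.79. En1 lay lower in both p212fs libraries than in WT, but its log2 difference of -0.57 ± 0.36 did not pass (edgeR adjusted p = 0.301). With the Xist pattern as a term its sign turned, to 0.17. In all, 6 of the 9 genes did not overlap between p212fs and WT, 1 higher and 5 lower, where 54.2% of all genes did not overlap.

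Marker levels moved with the same comparison. Of 10 fibroblast markers 6 fell and none rose in p212fs (median log2 -0.87). Of 8 cartilage and bone markers tested 2 rose and 1 fell (median log2 -0.16). The cartilage and bone list summed to 484 to 645 CPM against 79.7 to 117 in WT, where Matn1 was at 0. By that median, the higher sum was not shared by most of the markers tested. Macrophage markers summed to 479 to 638 CPM against 753 to 997, and neuronal and glial markers to 176 to 208 against 306 to 408. No marker of either list was at 0 in a genotype. Of 12 macrophage markers 3 fell and 0 rose (25%), and of 11 neuronal and glial markers 5 fell and 0 rose (45.5%). The share of all genes that passed was 17.1%. The part of these cells in the 5 changes was not tested.

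**Figure D3:**
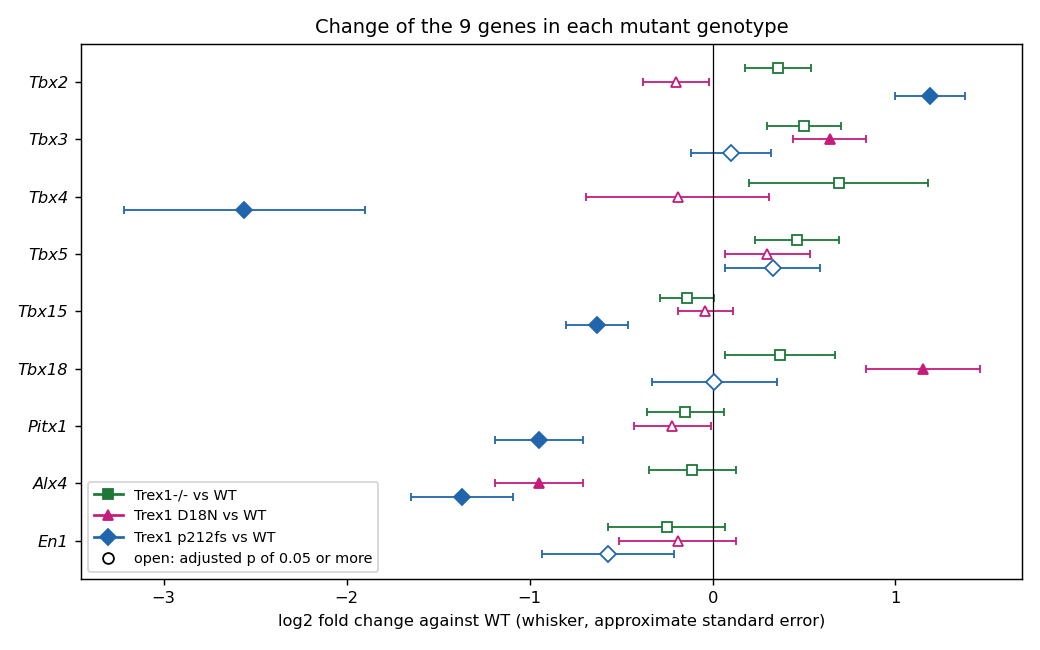
Log2 fold change against WT (horizontal axis) of the 9 genes in Trex1-/-, D18N and p212fs, with approximate standard errors; filled symbols passed an adjusted p of 0.05. In p212fs Tbx4 had a value of -2.56 and Tbx2 of 1.19, while in Trex1-/- no gene passed.

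In p212fs against either of the other mutants, Tbx2 was again higher and Tbx4, Tbx15 and Pitx1 lower. Against Trex1-/-, 5 of the 9 passed, 1 higher and 4 lower, where 32.5% of all genes passed, 15.4% higher and 17.1% lower; 5 did not overlap, against 60.4% of all genes. Against D18N, 5 passed, 1 higher and 4 lower, where 38.7% of all genes passed, 18.6% higher and 20.1% lower; 6 did not overlap, against 69.8% of all genes. Tbx2, Tbx4, Tbx15 and Pitx1 were called in all 3 comparisons, Alx4 also against Trex1-/- and Tbx18 also against D18N. These comparisons share the 2 p212fs libraries, so they are not independent of each other. Marker levels moved here too: 7 of 10 fibroblast markers were lower in p212fs in both comparisons. Against D18N all 13 muscle markers tested were lower and 9 of 12 macrophage markers higher, and against Trex1-/- 3 of 13 and 3 of 12 were higher. The part of these cells in the calls was not tested.

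Tbx4 had 12.5, 12.0 and 10.9 CPM in Trex1-/-, the highest values of the series, and 8.17, 8.75 and 2.12 in D18N. The log2 fold change of p212fs was -3.24 ± 0.67 against Trex1-/- (edgeR adjusted p = 0.00552) and -2.37 ± 0.65 against D18N (edgeR adjusted p = 0.0164). Both calls ended without p212fs replicate 1, where the single library left had 2.00 CPM; the values were then -2.61 and -1.70. The call against D18N also ended with no filter (edgeR adjusted p = 0.0644) and with only the 2 groups compared (0.0513). The order of Tbx4 levels was Trex1-/-, WT, D18N and p212fs, and neither Trex1-/- and WT nor WT and D18N were separated by the test, though the Trex1-/- libraries all lay above those of WT.

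For Tbx2 the log2 fold change of p212fs was 0.84 ± 0.19 against Trex1-/- (edgeR adjusted p = 0.00831) and 1.39 ± 0.19 against D18N (edgeR adjusted p = 0.000622). The first call ended without p212fs replicate 1 (adjusted p = 0.0813), and the second stood in all 12 alternatives. The order was p212fs, Trex1-/-, WT and D18N, with Trex1-/- and WT, and WT and D18N, not separated by the test.

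Pitx1 had 11.6, 12.3 and 18.5 CPM in Trex1-/- and 13.7, 15.9 and 10.3 in D18N, all above the 8.24 and 8.54 of p212fs. The log2 fold change of p212fs was -0.80 ± 0.24 against Trex1-/- (edgeR adjusted p = 0.0265) and -0.74 ± 0.24 against D18N (edgeR adjusted p = 0.0323). Either p212fs library left out ended both calls, as did Trex1-/- replicate 3 and a fit of only the 2 groups compared for the first, and D18N replicate 1 or 2 and a fit of only the low-Xist libraries for the second. Among WT, Trex1-/- and D18N, whose means fell in that order, Pitx1 did not differ beyond the spread.

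Tbx15 had 82.5, 98.4 and 107 CPM in Trex1-/- and 119, 94.1 and 92.4 in D18N, and its log2 fold change in p212fs was -0.49 ± 0.17 and -0.59 ± 0.17 (edgeR adjusted p = 0.044 and 0.0173). The call against Trex1-/- is weak: it stood in 2 of 12 alternatives, and ended without Trex1-/- replicate 2 or 3 or either p212fs library. That against D18N ended without D18N replicate 1 or p212fs replicate 1. Alx4 had 23.5, 18 and 26.0 CPM in Trex1-/-, all above p212fs, with a log2 fold change of -1.27 ± 0.28 (edgeR adjusted p = 0.00732), which did not pass without p212fs replicate 2 (adjusted p = 0.081).

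The 9 genes were read beside 98 other genes of limb and axial patterning, of which 83 were tested. That list was chosen with earlier results of these data known. Its share of calls beside that of all genes, here and in every comparison, is thus a description only. In p212fs against WT 10 of the 83 rose and 15 fell, that is 30.1%. All genes tested had a share of 17.1% called, 8.13% higher and 8.95% lower. Hoxc11, Hoxc10, Hoxa11 and Hoxd9, genes from the posterior side of their Hox clusters, were 4 of the 5 named by the smallest p-values. Of other posterior genes, Hoxd11 (-1.95 ± 0.54, edgeR adjusted p = 0.0304) and Hoxd13 (-3.36 ± 1.01, edgeR adjusted p = 0.0447) also passed as lower. So did Hoxa13 (edgeR adjusted p = 0.0281), which had 1 count in p212fs in all. Hoxa9 (-0.15 ± 0.19, edgeR adjusted p = 0.604) and Hoxc9 (-0.24 ± 0.25, edgeR adjusted p = 0.526) overlapped with WT and did not pass. These other posterior genes were named after their values were seen. Hoxc10 had 16.5, 15.2 and 20.3 CPM in WT and 1.79 and 4.65 in p212fs, a log2 fold change of -2.49 ± 0.32 (edgeR adjusted p = 0.000986). Hoxa11 fell by 2.46 ± 0.44 and Hoxd9 by 1.24 ± 0.23 on the log2 scale.

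Hoxc11, a caudal gene of the same cluster as Hoxc10, had 3.60, 2.68 and 3.52 CPM in WT and 1 count in each p212fs library, so that WT was 59.8-fold higher in pooled counts (exact 95% interval 16.3 to 498, counting error only). Msx2, a homeobox gene of limb margins and skull, went the other way, from 1.11, 1.81 and 3.20 CPM to 10.5 and 9.52 (2.24 ± 0.36; edgeR adjusted p = 0.00309). Hoxc4 and Hoxc5, anterior genes of the Hoxc cluster chosen after their values were seen, had 15.3 to 15.8 and 13.5 to 14.9 CPM in WT and 18.8 to 20.4 and 17.4 to 20.3 in p212fs. They did not pass against WT, though the p212fs libraries lay above those of WT for both. Against the other mutants Hoxc4 did not pass. Hoxc5 passed as higher against Trex1-/- (0.59 ± 0.19, edgeR adjusted p = 0.0346) but not against D18N.

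By subgroup, the body-position factors of that list had 1 member higher and 9 lower of 29 tested in p212fs against WT, the limb field and mesenchyme factors 3 and 3 of 26, the signals and their inhibitors 3 and 3 of 17, the paired-class and Pitx relatives 2 and 0 of 7, and the other T-box genes 1 and 0 of 4. Tbx1, a T-box gene of the pharyngeal region, was the 1 that rose (0.91 ± 0.26, edgeR adjusted p = 0.0366); it was named after its values were seen. Over all genes tested, 17.1% passed in this comparison, 8.13% higher and 8.95% lower. Without p212fs replicate 1, which left 1 library in that group, fewer genes passed, both in the list and among all genes tested.

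Against Trex1-/-, 6 of the 83 rose and 21 fell in p212fs, that is 32.5%, which equals the share of all genes called, 32.5%. Against D18N 17 rose and 24 fell, that is 49.4%, against 38.7% of all genes. The smallest p-values against Trex1-/- included Gli2, a transcription factor of hedgehog signalling (-1.18 ± 0.20), and Mga, a large protein with a T-box (-1.49 ± 0.26). Against D18N they included Msx2 (3.82 ± 0.40) and Wt1, a zinc-finger gene of mesothelium and kidney (-1.59 ± 0.21). Hoxc10 and Hoxa11 were lower in p212fs in both, with log2 fold changes of -2.23 ± 0.32 and -2.55 ± 0.44 against Trex1-/-, and of -2.83 ± 0.32 and -3.29 ± 0.45 against D18N. Pooled Hoxc11 counts were 45.3-fold and 101-fold higher in Trex1-/- and D18N (exact 95% intervals 12.3 to 377 and 27.6 to 835).

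**Figure D4:**
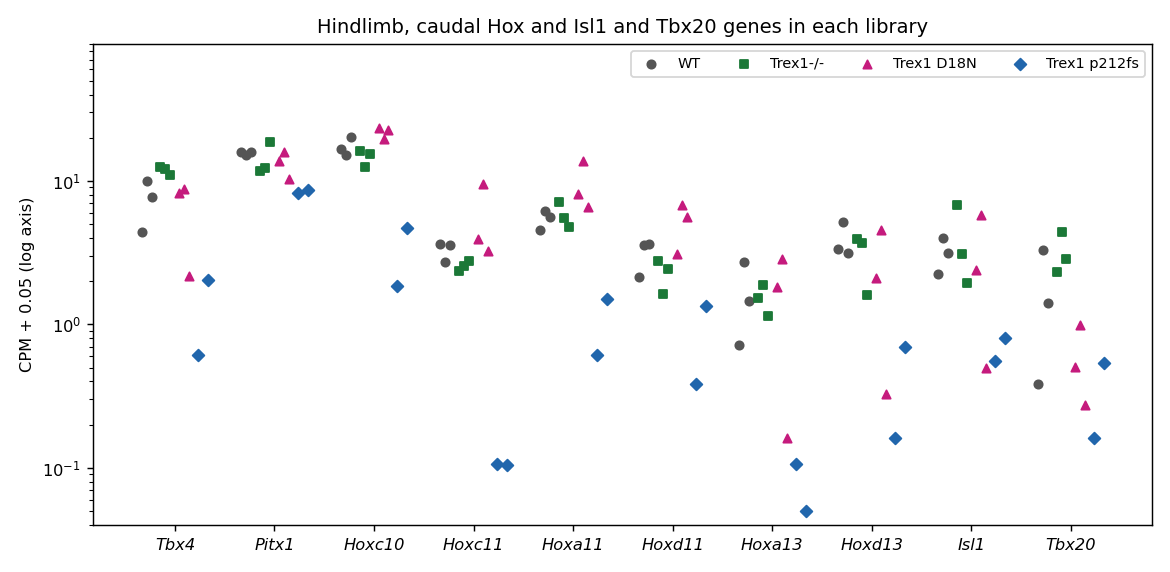
CPM + 0.05 (log axis) of Tbx4, Pitx1, 6 posterior Hox genes, Isl1 and Tbx20 in each library, coloured by genotype. Both p212fs libraries lay low for the 6 Hox genes plotted, which were chosen after their values were seen, and D18N replicate 3 lay near them for Tbx4, Hoxa13, Hoxd13 and Isl1 but not for Hoxc10 or Hoxc11.

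Tbx4 also differed between libraries of a genotype, and some other caudal genes differed with it while others did not. In D18N, where replicate 3 had 2.12 CPM of Tbx4 against 8.17 and 8.75, Isl1, a hindlimb field factor upstream of Tbx4, had 0.446 CPM against 2.33 and 5.76. Hoxa13, a gene of the distal limb and the hindgut region, had 0.112 against 1.76 and 2.82, and Hoxd13 0.279 against 2.04 and 4.48. Replicate 3 was the lowest D18N library for all 4 genes, whereas its Hoxc10 level of 22.6 CPM lay between 23.4 and 19.6. Its Hoxd11 level of 5.52 CPM likewise lay between 3.06 and 6.7. Among WT libraries, replicate 1 was lowest for Tbx4 (4.32 CPM), Isl1 (2.21) and Hoxa13 (0.664), but not for Hoxd13. WT replicate 2, the highest for Tbx4 (9.96 CPM), was the lowest for Hoxc10 (15.2) and Hoxc11 (2.68). These genes were named after their values were seen, and no test was run on single libraries.

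Set against WT, D18N shows what the active-site allele goes with in these cells. Embryo sex was partly confounded with genotype here, Xist being high in all WT libraries but only in replicate 1 of D18N. Tbx18 and Tbx3 rose and Alx4 fell. That is 3 of the 9 genes by edgeR, 2 higher and 1 lower, where 25.3% of all genes passed, 12.2% higher and 13.2% lower; DESeq2 called the same 3. The median log2 fold change of the 9 was -0.19, against 0.04 over all genes tested, and 3 of the 9 did not overlap, where 44.8% of all genes did not.

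Tbx18 had 11.4, 9.22 and 6.45 CPM in WT and 22, 19.9 and 18 in D18N. The groups did not overlap, and Trex1-/- replicate 2, at 17.8 CPM, was the one library outside D18N near that level; the other Trex1-/- libraries had 7.86 and 9.39. The log2 fold change was 1.15 ± 0.31 (edgeR adjusted p = 0.0207). The call was lost without WT replicate 3 or D18N replicate 1 or 2. Against p212fs, with 9.24 and 9.79 CPM, the log2 difference of p212fs from D18N was -1.14 ± 0.35 (edgeR adjusted p = 0.0238), lost without D18N replicate 1 or 2 or either p212fs library.

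Tbx3 had 20.6, 32.1 and 27.3 CPM in WT and 47.9, 43.1 and 32.5 in D18N, so that the lowest D18N library lay just above the highest WT library. Its log2 fold change was 0.64 ± 0.20 (edgeR adjusted p = 0.0342), and the call ended without WT replicate 1 or 3 or D18N replicate 1 or 2. Tbx3os1 shares 115 exonic bases (1.74% of Tbx3 exons) on the opposite strand. It had 67, 22 and 17 counts in D18N replicates 1, 2 and 3 and 10 to 13 in WT. In p212fs, where Tbx3 did not pass against WT, it had 42 and 35 counts, and in Trex1-/- 7 to 21. Since the strand setting is not given, reads in the shared bases cannot be assigned.

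Alx4 had 12.2, 15 and 9.65 CPM in D18N, all below the 15.9, 31.5 and 25 of WT, though by little for WT replicate 1. The log2 fold change was -0.95 ± 0.24 (edgeR adjusted p = 0.0183), lost without WT replicate 3 or D18N replicate 3. For Alx4 the order was WT, Trex1-/-, D18N and p212fs; WT and Trex1-/- overlapped, as did D18N and p212fs. The D18N libraries all lay below those of Trex1-/-, with a log2 difference of -0.85 ± 0.24 that edgeR did not pass (adjusted p = 0.0604). It passed in DESeq2 (adjusted p = 0.0146), with no filter (0.0149), with only the low-Xist libraries (0.0314) and without Trex1-/- replicate 2 (0.0387).

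Tbx4, Tbx5, Tbx2, Tbx15, Pitx1 and En1 did not pass between D18N and WT, with log2 differences from -0.22 (Pitx1) to 0.30 (Tbx5). For Tbx5 the approximate 95% interval ran from -0.16 to 0.75, and for En1 from -0.82 to 0.43. Without WT replicate 3, edgeR called none of the 9 in this comparison.

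Skeletal muscle markers summed to 741 to 1820 CPM in D18N against 9.46 to 12.4 in WT, where Myf5, Myf6 and Ckm were at 0; all 13 tested rose. Macrophage markers summed to 57.8 to 122 CPM against 753 to 997, and all 12 fell. Of 11 neuronal and glial markers 6 fell and 1 rose. The part of these cells in the changes of Tbx3, Tbx18 and Alx4 was not tested.

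Of the 83 patterning genes tested, 11 rose and 15 fell in D18N, that is 31.3%, beside 25.3% of all genes. Fgf10, the mesenchymal signal that starts limb outgrowth, had 5.26, 6.66 and 5.15 CPM in WT and 38.0, 29.2 and 18.8 in D18N (log2 fold change 2.34 ± 0.33, edgeR adjusted p = 0.00137). Hoxa9 rose by 1.27 ± 0.17. Pax1, a sclerotome gene, had 15, 15.8 and 23.9 CPM in WT and 4.82, 3.21 and 2.23 in D18N (-2.40 ± 0.39), and Irx3 (-1.13 ± 0.19) and Barx1 (-2.95 ± 0.58), homeobox genes of limb and of stomach and jaw mesenchyme, fell too. No library of D18N overlapped WT for Fgf10 or Pax1.

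The comparison of Trex1-/- with WT asks what loss of the enzyme goes with. By edgeR 0 of the 9 genes passed, where 0.00% of all genes passed; 1 of the 9 had an unadjusted p under 0.05, as had 22.7% of all genes, and DESeq2 called 0. The 2 genes whose libraries did not overlap were Tbx4 (10.9 to 12.5 against 4.32 to 9.96 CPM) and Tbx5 (6.53, 6.60 and 7.67 against 3.65, 6.16 and 5.31), both higher in Trex1-/-, where 22.5% of all genes did not overlap. Their log2 differences were 0.69 ± 0.49 (edgeR adjusted p = 0.42) and 0.46 ± 0.23 (edgeR adjusted p = 0.255). Tbx3, at 30.8, 43.6 and 38.8 CPM, had a difference of 0.50 ± 0.20 (edgeR adjusted p = 0.175). Macrophage markers summed to 209 to 339 CPM in Trex1-/- against 753 to 997 in WT. Of the 12, 0 passed by edgeR and 10 had an unadjusted p under 0.05. The part of these cells in the differences was not tested.

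The Trex1-/- libraries differed among themselves most for En1 and Tbx18. En1 had 15.2, 43.0 and 28.5 CPM in replicates 1, 2 and 3, so that its lowest and highest values of the series were both in this genotype. Replicate 2 was the highest for Tbx18 as well, at 17.8 CPM, and the lowest for Alx4, at 18 CPM. Without replicate 2 the Tbx18 difference from WT was -0.10 in place of 0.37. Of the 83 patterning genes 0 passed by edgeR and 18 had an unadjusted p under 0.05, where 22.7% of all genes had. DESeq2 called 6 of them, and 846 of all 16990 genes. The 2 most abundant were Fgfr1, a fibroblast growth factor receptor (log2 difference 0.14 ± 0.11), and Prrx1, a limb mesenchyme factor (0.41 ± 0.18).

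Between D18N and Trex1-/- edgeR called 0 of the 9 genes, where 6.80% of all genes passed, 3.95% higher and 2.85% lower. An unadjusted p under 0.05 was found for 3 of the 9 and for 23.7% of all genes, and DESeq2 called 2, Tbx2 and Alx4. Tbx2 had a log2 difference of -0.55 ± 0.18 (edgeR adjusted p = 0.0847) and Tbx18 of 0.79 ± 0.30 (edgeR adjusted p = 0.139). The libraries of 4 genes did not overlap, Tbx18 higher and Tbx2, Tbx4 and Alx4 lower in D18N, where 28.0% of all genes did not overlap. Without Trex1-/- replicate 2, Tbx18 (1.23, edgeR adjusted p = 0.0102) and Alx4 (-1.0, edgeR adjusted p = 0.0387) passed. Cell type markers differed too: 12 of 13 muscle markers tested were higher and 8 of 12 macrophage markers lower in D18N. The part of these cells in the differences was not tested. Of the 83 patterning genes 6 were higher and 17 lower in D18N, that is 27.7% beside 6.80% of all genes, led by Pax1 (-3.15 ± 0.40), Pax9 (-1.88 ± 0.26), Fgfr2 (-1.55 ± 0.23) and Msx2 (-2.0 ± 0.37) among those lower and Hoxa9 (1.09 ± 0.17) among those higher.

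Over the 6 comparisons, 7 of the 9 genes passed at least once, with 18 calls among 54 tests, and 2 genes, Tbx5 and En1, passed in none. Of all genes tested, 0.00% to 38.7% passed in a single comparison. The share of all genes that passed at least once was not computed, and the comparisons share libraries. The order of Tbx5 means was Trex1-/- (6.94 ± 0.641 CPM, SD, n = 3), p212fs (6.56 ± 1.20, n = 2), D18N (6.13 ± 1.28, n = 3) and WT (5.04 ± 1.28, n = 3), with no neighbours separated. The En1 means were 34.3 ± 4.54 CPM in WT (n = 3), 29.9 ± 6.29 in D18N (n = 3), 28.9 ± 13.9 in Trex1-/- (n = 3) and 24.2 ± 3.71 in p212fs (n = 2), again with no neighbours separated.

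The genes most like each member in pattern were found by Pearson correlation of log2(CPM + 1) over the 11 libraries, which share genotype and scaling, as a description. For Tbx2 they were Tnfrsf10b (r = 0.963), Hoxa5 (0.960) and Slc27a3 (0.956); Hoxa5 had a mean of 61.0 CPM in p212fs and 10.7 to 25.4 in the other genotypes. For Tbx4 they were Arrb1 (0.939), Nav2 (0.928) and Mia2 (0.922), and for Pitx1 Mark2 (0.945), Jdp2 (0.940) and Lurap1l (0.932). For Tbx18 they were Gbp8 (0.946), Ptgir (0.940) and Nt5e (0.940), of which Nt5e, a surface nucleotidase, had a mean of 102 CPM in D18N and 10.7 to 35.9 elsewhere. For Alx4 they were Plppr4 (0.974), Ncan (0.947) and Aqp4 (0.941). All 3 had lower means in D18N and p212fs than in WT, as in Aqp4 with 15.6 CPM in WT, 2.87 in D18N and 0.574 in p212fs. For Tbx3 they were Ppip5k1, Susd6 and Ddb2 (0.946, 0.939 and 0.928), for Tbx5 Nemf, Sema3c and Pcdh7 (0.879, 0.857 and 0.856), for Tbx15 Adam33, Trpm2 and Plxdc1 (0.922, 0.917 and 0.909), and for En1 Egln1, Gys1 and Tpbg (0.900, 0.865 and 0.851).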

How the data were processed

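The deposited values were whole-number read counts for each gene, without normalization. The tools fastp, HISAT2 and featureCounts and the build GRCm39 are named per the submitters' processing notes; versions, settings, annotation and strand handling are not given in the sources used here. The table had 55578 lines; 1654 without a gene name (0.0804% to 0.129% of reads) stayed out of library sizes and tests, and 1597 repeated a name. CPM was scaled to the library total.

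Genes were tested with edgeR 4.0.16 (R 4.3.3): filterByExpr with a minimum count of 10, TMM, robust quasi-likelihood fit, all 11 libraries with genotype as the term, 6 comparisons, adjusted over 16990 genes, threshold 0.05. Standard errors divide the size of the log2 fold change by the root of the F statistic, and 95% intervals are approximate. The test was tested on simulated data. DESeq2 1.42.0 was an alternative, beside upper-quartile scaling, no filter, only the 2 groups compared, the Xist pattern (above or below 10 CPM) as a term, the replicate number as a block, TMM-scaled CPM and leaving out each library.

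The members and lists were chosen with earlier results of these data known. Named genes were every member, the 3 genes most correlated with each (predicted genes left out), and the 5 patterning genes with the smallest p past the threshold in each comparison, or the 2 most abundant where none passed. Loci and exon lengths came from GENCODE M21 (GRCm38), not the submitters' build. Exons of Tbx18 and Pitx1 also overlap those of other genes, by up to 20.6% and 6.21% of their bases, with at most 21 and 71 counts for the partners.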

Additional observations from a re-analysis of the deposited data

How the results depend on the processing

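Calls of the 9 genes rested on few libraries, as did those of all genes tested. With each library left out in turn there were 0 to 3 calls for D18N against WT, 1 to 5 for p212fs against WT, 0 to 2 for D18N against Trex1-/-, 1 to 5 for p212fs against Trex1-/-, 1 to 6 for p212fs against D18N and 0 for Trex1-/- against WT. For the patterning genes the ranges were 13 to 32, 3 to 29, 6 to 24, 6 to 33, 23 to 44 and 0 to 9 in that order. Where p212fs was left with 1 library, that library was assumed to vary like the other groups. Other settings moved a count of the 9 by over 1.5 times as follows: p212fs against WT gave 2 calls with the Xist pattern as a term and 3 with the replicate block; p212fs against Trex1-/- gave 3 with the replicate block and 3 with only the 2 groups compared; D18N against Trex1-/- gave 2 in DESeq2, 1 with no filter and, in a setting added after seeing the data, 3 with only the low-Xist libraries. For the patterning genes, Trex1-/- against WT gave 6 in DESeq2, 3 with no filter and 5 with the Xist pattern as a term, p212fs against WT gave 14 with that term, D18N against Trex1-/- gave 8 with only the 2 groups compared, and p212fs against Trex1-/- gave 41 with only the low-Xist libraries. Counts over all genes tested moved as well. Trex1-/- against WT gave 2269 of 16878 without WT replicate 2 and 846 of 16990 in DESeq2. It gave 261 of 31432 with no filter and 380 of 16990 with the Xist pattern as a term. With that term p212fs against WT gave 1331 of 16990. D18N against Trex1-/- gave 417 of 15682 with only the 2 groups compared. With only the low-Xist libraries p212fs against Trex1-/- gave 6968 of 16364. The cause of these shifts was not tested. Upper-quartile scaling moved no count by over 1.5 times. Replicate numbers did not pair the libraries: deviations of same-numbered libraries correlated from -0.289 to 0.2 over 15 pairs, so the block shares only a number. The block ended the calls of Tbx15 and Pitx1 in p212fs against WT and against Trex1-/-, and that of Pitx1 against D18N.

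Directions turned for members that had not passed. The ranges with each library left out were, for Trex1-/- against WT, -0.1 to 0.61 for Tbx18, -0.32 to 0.11 for Alx4 and -0.68 to 0.07 for En1; for D18N against WT, -0.51 to 0.22 for Tbx4 and -0.16 to 0.01 for Tbx15; for p212fs against WT, -0.02 to 0.24 for Tbx3 and -0.18 to 0.25 for Tbx18; for D18N against Trex1-/-, -0.03 to 0.27 for Tbx3, -0.04 to 0.16 for Tbx15, -0.23 to 0.15 for Pitx1 and -0.29 to 0.46 for En1. For p212fs against Trex1-/- they were -0.32 to 0.04 for Tbx5, -0.59 to 0.11 for Tbx18 and -0.64 to 0.11 for En1, and for p212fs against D18N -0.13 to 0.23 for Tbx5. The replicate block put Tbx18 at -0.12 in p212fs against WT. With only the low-Xist libraries, Tbx18 and En1 went to 0.11 in p212fs against Trex1-/-. With the Xist pattern as a term, En1 went to 0.16, 0.29 and 0.17 in Trex1-/-, D18N and p212fs against WT and to 0 in p212fs against Trex1-/-, and Tbx4 and Tbx15 went to 0.01 and 0.1 in D18N against WT. No called member changed direction in any setting run. Tbx4 rested on 10 and 37 counts in p212fs, and the counting intervals of these libraries did not overlap.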

Other observations

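En1 levels split the libraries along their Xist level, which is confounded with genotype between p212fs and WT. The 5 libraries with high Xist, the 3 WT, Trex1-/- replicate 2 and D18N replicate 1, had 31.6 to 43.0 CPM of En1. The 6 with low Xist had 15.2 to 29.4 CPM. The nearest libraries across the split had overlapping counting intervals. These were 27.0 to 32.1 CPM for D18N replicate 3 and 28.9 to 34.4 CPM for WT replicate 2. Of all genes tested, 0.330% did not overlap between these 5 and 6 libraries. None of the other 8 genes did so. The split was noticed after the values were seen, it was not tested, and all 3 WT libraries were on one side and both p212fs libraries on the other.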
